A study of Mus musculus with 22 samples.

Results

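The peaks around 8 genes of the red cell membrane skeleton were followed through erythroid differentiation. The genes were Slc4a1, Ank1, Rhag, Sptb, Epb41, Epb42, Add2, and Tmod1, among the 21842 protein-coding genes of the GENCODE annotation of the mouse genome (mm10). They were chosen by name from what is known of the red cell membrane, with earlier results of these data already known. Each locus was the gene body plus 20 kb on each side. The red cell owes its shape and elasticity to a spectrin lattice under the plasma membrane. Ankyrin ties the lattice to band 3, protein 4.1 and adducin fasten it to short actin filaments, and tropomodulin caps those filaments. These proteins accumulate as erythroid precursors mature, and defects in several of them cause hereditary anemias with misshapen red cells.

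ChIP-seq peak lists had been made from G1E-ER4 (G1ER) cells, a mouse erythroid line that lacks endogenous GATA1 and carries GATA1 fused to an estrogen receptor domain. β-estradiol at 1e-07 M activates the fusion protein, and cells were taken without it (0 h) or after 2, 6, 12, and 24 h with it. Every culture also held 15% fetal bovine serum, 50 ng/mL SCF, and 2 U/mL EPO. H3K4me3, found mostly at transcription start sites (TSS), and H3K27ac, found at active promoters and enhancers, each had 2 lists per time point and thus 10 lists in all, and CTCF had 1 list at 0 h and 1 at 24 h. All samples came from 1 cell line, and the study describes the 2 replicates as independent experiments. The peak lists used here give positions and scores without the reads under them. The paper states that raw data are available as well, and those were not read here. The depth was therefore not known here, and the statements below concern presence and length of peaks.

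The lists had the marks of erythroid cells. H3K4me3 peaks lay at the main TSS of 7 of 8 matched erythroid marker genes in both 0 h lists and of 6 in both 24 h lists, with Tal1 without one at its main TSS and Gfi1b in 1 of 2 lists at 24 h. Of 3 mast cell markers, 2 had such a peak in both lists at 0 h and none in both lists at 24 h. Of 3 myeloid markers, Spi1 had it in all 4 lists and Mpo and Elane in none, and of 3 megakaryocyte markers, Gp9 alone had it, in 1 list at 24 h. The part of these cell type differences in the results was not tested. Lymphoid markers and markers of other tissues had none. From 17247 to 18333 H3K27ac peaks and from 12925 to 14452 H3K4me3 peaks were listed per library.

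One property of the lists bears on every length below. Beyond 4 kb, the score of a peak fell with its length. The median H3K27ac score was 477 for peaks of 3 to 4 kb, 125 for 7 to 8 kb, and 71.6 for 8 to 9 kb, where the lowest score in any list was 50 and the longest H3K27ac peak spanned 8973 bp. The H3K4me3 medians were 1300 for 3 to 4 kb and 108 for 8 to 9 kb. Peaks of 8 to 9 kb thus sat close to the lowest listed score in the median, whereas those of 5 to 6 kb had medians of 322 (H3K27ac) and 750 (H3K4me3). The part of length in the absence of a peak from single lists was not tested.

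**Figure D1:**
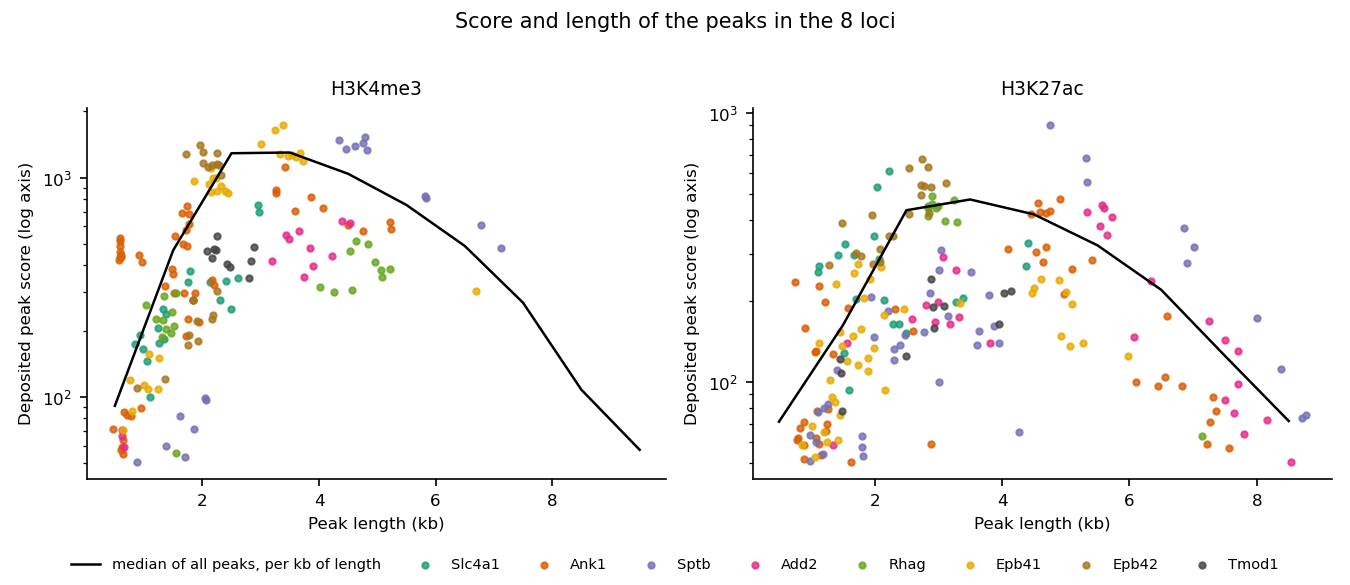
Deposited score (log axis) against length (kb) of every peak in the 8 loci, 1 point per peak and list, with H3K4me3 at left and H3K27ac at right. The black line is the median score of all peaks of that mark for each kb of length, and it falls beyond 4 kb; the H3K27ac points beyond 7 kb at Sptb, Add2, Ank1, and Rhag lie below the median of 477 for peaks of 3 to 4 kb.

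The 8 loci held 34 H3K27ac regions and 21 H3K4me3 regions, a region being a stretch covered in any list of the mark. Of these, all 10 lists covered 16 of the H3K27ac (47.1%) and 15 of the H3K4me3 regions (71.4%), against 54.4% and 70.8% of all regions of the genome. Most of the skeleton genes thus carried H3K4me3 before GATA1 was activated. It lay within 1 kb of the main TSS in all 10 lists for 7 of the 8 genes, and the exception, Add2, had it at a start inside the gene. For only 4 of the 8 (Slc4a1, Sptb, Epb42, and Tmod1), an H3K27ac region within 1 kb of the main TSS was covered in all 10 lists. At Tmod1, the peak of replicate 1 at 2 h began 1.124 kb downstream of that TSS. The main TSS was taken from the transcript with the best APPRIS level, the longest one where several shared it, and distances are given from it in the direction of transcription.

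The bases just before several of these starts are shown because the starts differ in what the marks did there. Each stretch, read from the RefSeq copy of the mouse genome (GRCm38.p6), has 150 bases and runs 5′ to 3′ on the gene's strand. Capitals mark 3 kinds of words, searched on both strands, which were GATA words (AGATAA with either A or T as its first letter and either A or G as its last), CACCC, and a composite word. The composite starts with CTG, goes on with 8 bases of any kind, and ends with a GATA word whose last letter is A. The stretch of Sptb precedes a start where both marks widened, that of Add2 a start inside the gene with wide H3K27ac, those of Rhag and Epb42 starts without a called difference, and the last a start inside Epb41 with both marks in all 10 lists.
Sptb, chr12:76710548-76710697, minus strand: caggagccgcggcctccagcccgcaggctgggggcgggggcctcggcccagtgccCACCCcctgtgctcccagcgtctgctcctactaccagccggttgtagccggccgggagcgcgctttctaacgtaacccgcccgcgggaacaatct
Add2, chr6:86077907-86078056, plus strand: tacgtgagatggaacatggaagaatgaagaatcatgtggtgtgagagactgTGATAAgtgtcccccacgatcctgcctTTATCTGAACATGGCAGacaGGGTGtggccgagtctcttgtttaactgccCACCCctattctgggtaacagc
Rhag, chr17:40810985-40811134, plus strand: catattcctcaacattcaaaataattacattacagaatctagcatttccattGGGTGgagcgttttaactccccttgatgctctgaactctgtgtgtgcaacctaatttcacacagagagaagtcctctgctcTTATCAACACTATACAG
Epb42, chr2:121037073-121037222, minus strand: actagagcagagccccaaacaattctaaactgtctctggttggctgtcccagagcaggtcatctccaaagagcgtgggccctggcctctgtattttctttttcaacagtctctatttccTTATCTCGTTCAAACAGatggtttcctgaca
Epb41, chr4:132049092-132049241, minus strand: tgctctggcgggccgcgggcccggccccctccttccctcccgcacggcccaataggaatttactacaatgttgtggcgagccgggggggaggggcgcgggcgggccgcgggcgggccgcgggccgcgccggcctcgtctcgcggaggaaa

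The stretches before Add2, Rhag, and Epb42 each held the composite word, which runs over the start by 9 bases in Rhag, and those before Sptb and Epb41 did not. A stretch was moved past its start only to keep a composite word that ran over it, and Rhag held the word only through that move. Stretches of the same length before the Tmod1 TSS and the main TSS of Epb41, not shown, held none either, which makes 3 of 7 with Rhag included. No share over all starts was computed for stretches of 150 bases. In the RefSeq promoter table (GRCm38.p6), 6 of the 8 genes were matched, with 8 promoters of 300 bases, and the composite word was found in those of Epb42 and Rhag. It was found in 0.591% of the 32851 promoters of that length in the table, a GATA word in 29.8%, and CACCC in 57.5%. Slc4a1 and Ank1 are named without sequence. Over the regions of the 6 matched genes, 6 of 25 H3K27ac regions (24.0%) and 6 of 14 H3K4me3 regions (42.9%) held a composite word, against 9.92% and 6.54% of all regions, at 0.079 and 0.207 words per kb against 0.0381 and 0.0288 per kb. With 7 and 9 words in all, these are descriptions and not sites of binding. Of the H3K27ac regions with the word, only that at the Epb42 TSS was present in all 10 lists. Among the H3K4me3 ones, those in an intron of Sptb and upstream of Rhag were each seen in a single list and the others in all 10.

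Slc4a1 encodes band 3, the anion exchanger that is the main membrane anchor of the skeleton (chr11:102348824-102366203, minus strand). H3K27ac covered 2290 and 2491 bp at its TSS in the 0 h lists, 1599 and 1527 bp after 2 h, 2153 and 2385 bp after 6 h, 3383 and 3276 bp after 12 h, and 4406 and 4383 bp after 24 h. Both lists at 12 h and both at 24 h lay above all lists of the earlier times, and both lists at 2 h lay below all others. The mean rose from 2390.5 ± 142.1 bp (SD, n = 2) to 4394.5 ± 16.26 bp, a log2 difference of 0.83 (SE 0.07, limma with a Benjamini-Hochberg adjusted p = 0.00113 over all regions). The rank of its score among the peaks of each list also rose, from the percentiles 38.3 and 34.4 to 58.8 and 53.8. The region was called longer in all 10 fits that left out 1 list, but not under a linear trend over the ranked times (limma adjusted p = 0.0589). H3K27ac regions were called longer for 3 of 28 tested regions of the 8 genes and shorter for 0, where 3.3% of all 21011 tested regions were longer and 3.02% were shorter.

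H3K4me3 at the Slc4a1 TSS covered 2126 and 2613 bp in the 0 h lists, 2970 and 2956 bp in the 24 h lists, with values from 1761 to 2498 bp in between. The difference was not called (log2 difference 0.31, SE 0.14, limma adjusted p = 0.454). Upstream of the gene, from -11.7 to -9.5 kb of the TSS and outside the gene, a second H3K27ac region was present in all 10 lists. Its length was 1673 and 1133 bp in the 0 h lists, 2231 and 2037 bp in the 24 h lists, with scores at the percentiles 56.6 and 51.1 of their lists against 80.5 and 78.0, and its difference was not called either. H3K4me3 lay there as well in all 10 lists, at 843 to 1374 bp.

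Ank1 encodes ankyrin, the adaptor between spectrin and band 3 (chr8:22974844-23150497, plus strand). Its marks did not center on the main TSS but on a cluster of 3 annotated starts 23.2 kb upstream, still inside the gene, where the H3K4me3 region overlapped UTR and coding sequence. H3K4me3 covered 3271 and 3590 bp there at 0 h, 3857 and 3265 bp after 2 h, 4073 and 3422 bp after 6 h, 4757 and 4494 bp after 12 h, and 5242 and 5215 bp after 24 h. The lists at 12 and 24 h lay above all earlier ones. The mean rose from 3430.5 ± 225.6 bp to 5228.5 ± 19.09 bp (log2 difference 0.58, SE 0.10, limma adjusted p = 0.0402). This call was lost in 6 of 10 fits that left out 1 list (0.0657 to 0.251 among the adjusted p-values of limma), always with the same direction. H3K4me3 regions were called longer for 2 of 19 tested regions of the 8 genes and shorter for 0, where 0.471% of all 14862 tested regions were longer and 1.11% were shorter.

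H3K27ac at the same Ank1 starts covered 4538 and 4460 bp at 0 h and from 6558 to 7555 bp in the 6 lists between 2 and 12 h. At 24 h it covered 7363 bp in replicate 2 and had no peak in replicate 1. The scores stood at the percentiles 57.5 and 65.3 of their lists at 0 h, between 4.52 and 40.2 from 2 to 12 h, and at 15.8 at 24 h. Where listed from 2 h on, the peak was thus wider and lower in rank than at 0 h, and the difference was not called (log2 difference -1.93, SE 1.46, limma adjusted p = 0.543). A neighboring H3K27ac region in an intron, from -31.6 to -26.1 kb, was present in all 10 lists at 4097 to 5411 bp, where both CTCF lists also had a peak.

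The main TSS of Ank1 had a narrow H3K4me3 peak in all 10 lists, of 1491 to 1940 bp, whose mean was 1771.5 bp before and 1715.5 bp after 24 h (-0.05 on the log2 scale, SE 0.11, limma adjusted p = 0.932). The nearest H3K27ac reached to -1.2 kb, as a wide region seen in 4 of 10 lists. At an internal start 37.8 kb downstream, H3K4me3 of 577 to 957 bp and H3K27ac of 906 to 2611 bp were present in all 10 lists, and both CTCF lists had a peak there. A short H3K27ac region 61.3 to 63.0 kb downstream of the main TSS had no peak in the 0 h lists and peaks of 829 and 780 bp in the 24 h lists. These did not overlap each other and formed 1 region only through a peak of 891 bp in replicate 1 at 2 h.

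Rhag encodes the Rh-associated glycoprotein, a membrane protein of the Rh complex that transports ammonia (chr17:40811126-40840754, plus strand). H3K4me3 covered 4026 to 5222 bp at its TSS over the 10 lists, averaging 4444.5 ± 272.2 bp before and 4952 ± 161.2 bp after 24 h (0.15 on the log2 scale, SE 0.12, limma adjusted p = 0.722). H3K27ac within 1 kb of that TSS was listed in 1 of 10 libraries, replicate 2 at 0 h, as a peak of 7141 bp with a score of 62.9 that ended 0.7 kb before the TSS. The other 9 lists had none. That single peak moved the difference of the whole Rhag locus, which was -0.81 on the log2 scale (SE 0.48, limma adjusted p = 0.409) with it, 0.07 without 0 h replicate 2, and -1.68 (adjusted p = 0.0063) without 0 h replicate 1. The steady H3K27ac region of this locus, of 2831 to 3291 bp in all 10 lists, lay at the TSS of Crisp2, a neighboring gene.

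Sptb encodes β-spectrin, a subunit of the filaments of the lattice (chr12:76580488-76710547, minus strand). Both marks widened at its TSS. H3K27ac covered 5332 and 4746 bp at 0 h, 5315 and 6906 bp after 2 h, 7009 and 6850 bp after 6 h, 8001 and 8716 bp after 12 h, and 8766 and 8375 bp after 24 h. No list at 0 h overlapped those from 6 h on. The mean rose from 5039.0 ± 414.4 bp to 8570.5 ± 276.5 bp (log2 difference 0.75, SE 0.13, limma adjusted p = 0.0213), and the call was lost in the 4 fits that left out a list at 0 or 24 h (adjusted p from 0.0548 to 0.111).

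H3K4me3 at the Sptb TSS covered 4351 and 4615 bp at 0 h, 4830 and 4472 bp after 2 h, 4762 and 4794 bp after 6 h, 5822 and 5833 bp after 12 h, and 7127 and 6783 bp after 24 h. Both lists at 12 h lay above all earlier ones, and both at 24 h lay above those at 12 h. The log2 difference was 0.61 (SE 0.06, limma adjusted p = 0.00362), called in all 10 fits that left out 1 list. In contrast to Slc4a1, the ranks of the scores at Sptb fell as the peaks lengthened, from the percentiles 80.1 and 95 of their lists to 14.7 and 27.6 for H3K27ac and from 80.0 and 76.8 to 35.6 and 40.7 for H3K4me3. Those of H3K4me3 at the upstream starts of Ank1 also fell, from 50.4 and 46.9 to 39.2 and 41.5. Over all H3K27ac peaks, the median score was 435 for 2 to 3 kb, 420 for 4 to 5 kb, and 71.6 for 8 to 9 kb. The 24 h peaks of Slc4a1 and Sptb lay in different ranges of length, and the part of length in this contrast was not tested.

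A cutoff on the score could not test these lengths. When only peaks scoring no less than the pooled median were used (241.9 for H3K27ac and 860.3 for H3K4me3), both 24 h peaks at the Sptb TSS were removed for each mark and both 0 h peaks kept, and limma gave log2 differences of -4.71 (SE 0.17, adjusted p = 1.8e-05) and -4.55 (SE 0.19, adjusted p = 3.48e-05). At the Slc4a1 TSS, both 0 h peaks of H3K27ac were removed and both 24 h peaks kept (4.52, SE 0.28). These values set a listed peak against none and not one length against another. Under the same cutoff, H3K27ac was called shorter for a region inside Add2 (-4.08, SE 0.28) and at the upstream starts of Ank1 (-4.55, SE 0.28), and the H3K4me3 difference at those starts was -2.06 (SE 1.7, not called). The amount of either mark is not measured by these lists.

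Inside Sptb, an intronic H3K27ac region 114.7 to 117.8 kb downstream of the TSS (chr12:76592720-76595838) was the third to be called longer. It covered 1938 and 1413 bp at 0 h, 2302 and 1991 bp after 2 h, 2470 and 2205 bp after 6 h, 2401 and 2302 bp after 12 h, and 2775 and 3014 bp after 24 h. Both lists at 24 h exceeded every earlier list (log2 difference 0.74, SE 0.15, limma adjusted p = 0.0344), although the call was lost in 7 of 10 fits that left out 1 list. The stretch of 1237 bp covered in all lists held 1 GATA word and 7 CACCC words, and the part around the GATA word is shown in the same way as the starts.
Sptb intron, chr12:76594206-76594355, minus strand: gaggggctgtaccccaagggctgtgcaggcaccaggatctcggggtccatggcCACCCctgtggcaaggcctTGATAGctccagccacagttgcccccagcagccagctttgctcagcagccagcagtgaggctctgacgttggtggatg

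A further Sptb region at 57.4 to 61.5 kb was steady in presence, at 2869 to 3960 bp in all 10 lists. A flanking one, from -9.8 to -7.9 kb of the TSS, was absent at 0 and 2 h, seen in 1 list each at 6 and 12 h, and present in both lists at 24 h at 1114 and 1201 bp. H3K27ac regions gained in this sense, with a peak in neither 0 h list and in both 24 h lists, numbered 3 of 34 in the 8 loci, where 3.43% of all 24299 regions were gained, and none of the 34 was lost, where 4.18% of all were lost. The gained regions, at Sptb, Ank1, and Epb41, had scores from 60.6 to 93.1 in the 24 h lists. Without replicate 1 at 2 h, whose peak joined those of Ank1, 2 were gained. For H3K4me3, 1 of 21 regions was lost and 0 were gained, where 3.88% and 0.456% of all 16244 regions were lost and gained.

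**Figure D2:**
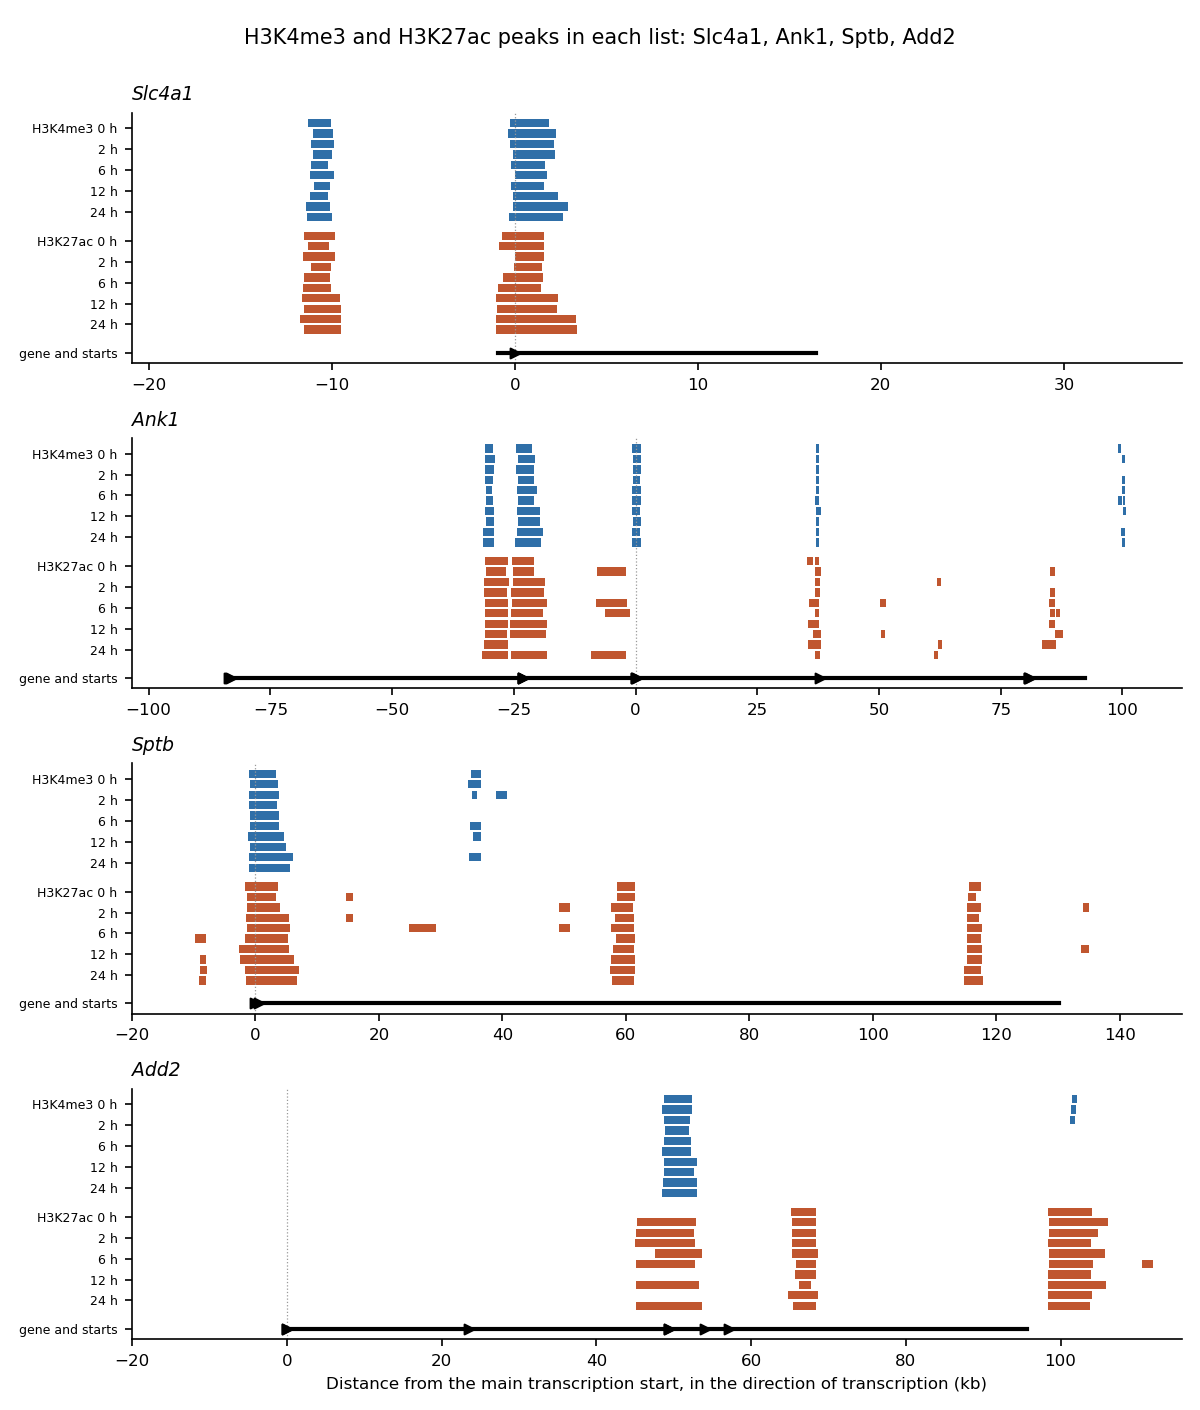
Peaks of H3K4me3 (blue) and H3K27ac (orange) in each of the 10 lists per mark, 2 rows per time point, against distance from the main TSS (kb) for Slc4a1, Ank1, Sptb, and Add2. Black lines are gene bodies and arrowheads annotated starts; the bars at the TSS of Slc4a1 and Sptb and the H3K4me3 bars at the upstream starts of Ank1 reach farther into the gene at 24 h than at 0 h.

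Epb41 encodes protein 4.1, which strengthens the contact between spectrin and actin (chr4:131923413-132075321, minus strand). The H3K4me3 region at its 5′ end was present in all 10 lists, but in 8 of them the peak ended upstream of the main TSS and covered another annotated start of the gene. Its length was 3004 to 3734 bp in 9 lists and 6692 bp in replicate 2 at 24 h, where its score of 305 was the lowest of the 10 (log2 difference 0.49, SE 0.24, limma adjusted p = 0.483). The TSS of Gm10300, another protein-coding gene, lay in this H3K4me3 region or within 1 kb of it. No H3K27ac peak lay within 1 kb of the main TSS of Epb41 in any list. The start 23 kb downstream had both marks in all 10 lists, with 1134 to 1890 bp of H3K27ac and 1850 to 2433 bp of H3K4me3 and with log2 differences of -0.05 (SE 0.20) and -0.03 (SE 0.10).

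The widest H3K27ac of the locus lay in an intron, 28.5 to 34.5 kb from the main TSS, at 4467 to 5975 bp in all 10 lists, and another intronic region at 44.2 to 47.8 kb was also in all 10. An H3K27ac region near the 3′ end, at 143.4 to 145.5 kb, was absent at 0 h and covered 1374 and 2166 bp after 24 h. Of the 8 H3K27ac regions of Epb41, 3 were present in all 10 lists and 3 in a single list.

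Epb42 encodes protein 4.2, which joins band 3 to ankyrin (chr2:121017891-121037072, minus strand). H3K27ac at its TSS covered 2533 to 3114 bp over the 10 lists, averaging 2977.0 ± 193.7 bp before and 2831.0 ± 73.54 bp after 24 h (-0.07 on the log2 scale, SE 0.08, limma adjusted p = 0.679). No list at 24 h lay outside the range of the earlier ones. H3K4me3 there covered 879 to 2248 bp (median 1877 bp), with the lowest value in replicate 2 at 6 h, and scored from 110 to 305, below the median score of that mark (log2 difference -0.17, SE 0.28, limma adjusted p = 0.892). The other region of each mark in the locus lay at the TSS of Ccndbp1, a neighboring gene.

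Add2 encodes β-adducin, which caps actin filaments and recruits spectrin to them (chr6:86028681-86124409, plus strand). Neither mark had a peak within 1 kb of its main TSS in any list, and both lay over a start 49.4 kb inside the gene. H3K4me3 covered 3737 and 3900 bp there at 0 h, 3200 to 3657 bp at 2 and 6 h, 4224 and 3842 bp after 12 h, and 4390 and 4539 bp after 24 h. Both lists at 24 h exceeded all others, but the difference was not called (log2 difference 0.22, SE 0.06, limma adjusted p = 0.191).

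H3K27ac over the same start was listed in 7 of 10 libraries, at 6065 to 8529 bp with scores from 50 to 146, and was missing from replicate 1 at 0, 12, and 24 h. The lists with and without it thus divided each of these time points, and no difference with time could be read from it. A region inside the gene at 64.8 to 68.6 kb and a flanking one at 98.4 to 106.2 kb had H3K27ac in all 10 lists, at 1573 to 3813 bp and 5329 to 7702 bp. The single lost H3K4me3 region of the 8 loci, a flanking one of 616 to 657 bp with scores from 59.2 to 71.0 in the 3 lists that held it, lay within the span of that last region.

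Tmod1 encodes tropomodulin, which caps the pointed ends of the actin filaments (chr4:46038935-46116032, plus strand). Its locus held a single region per mark, at the TSS. H3K27ac covered 2498 and 3947 bp at 0 h, 1477 and 2940 bp after 2 h, 2923 and 3084 bp after 6 h, 2886 and 2953 bp after 12 h, and 4145 and 4035 bp after 24 h. Both lists at 24 h were the longest, but the 2 lists at 0 h differed by more than the distance from the higher of them to 24 h, and the difference was not called (log2 difference 0.36, SE 0.31, limma adjusted p = 0.573). H3K4me3 covered 2085 to 2886 bp throughout, with a log2 difference of -0.02 (SE 0.15).

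**Figure D3:**
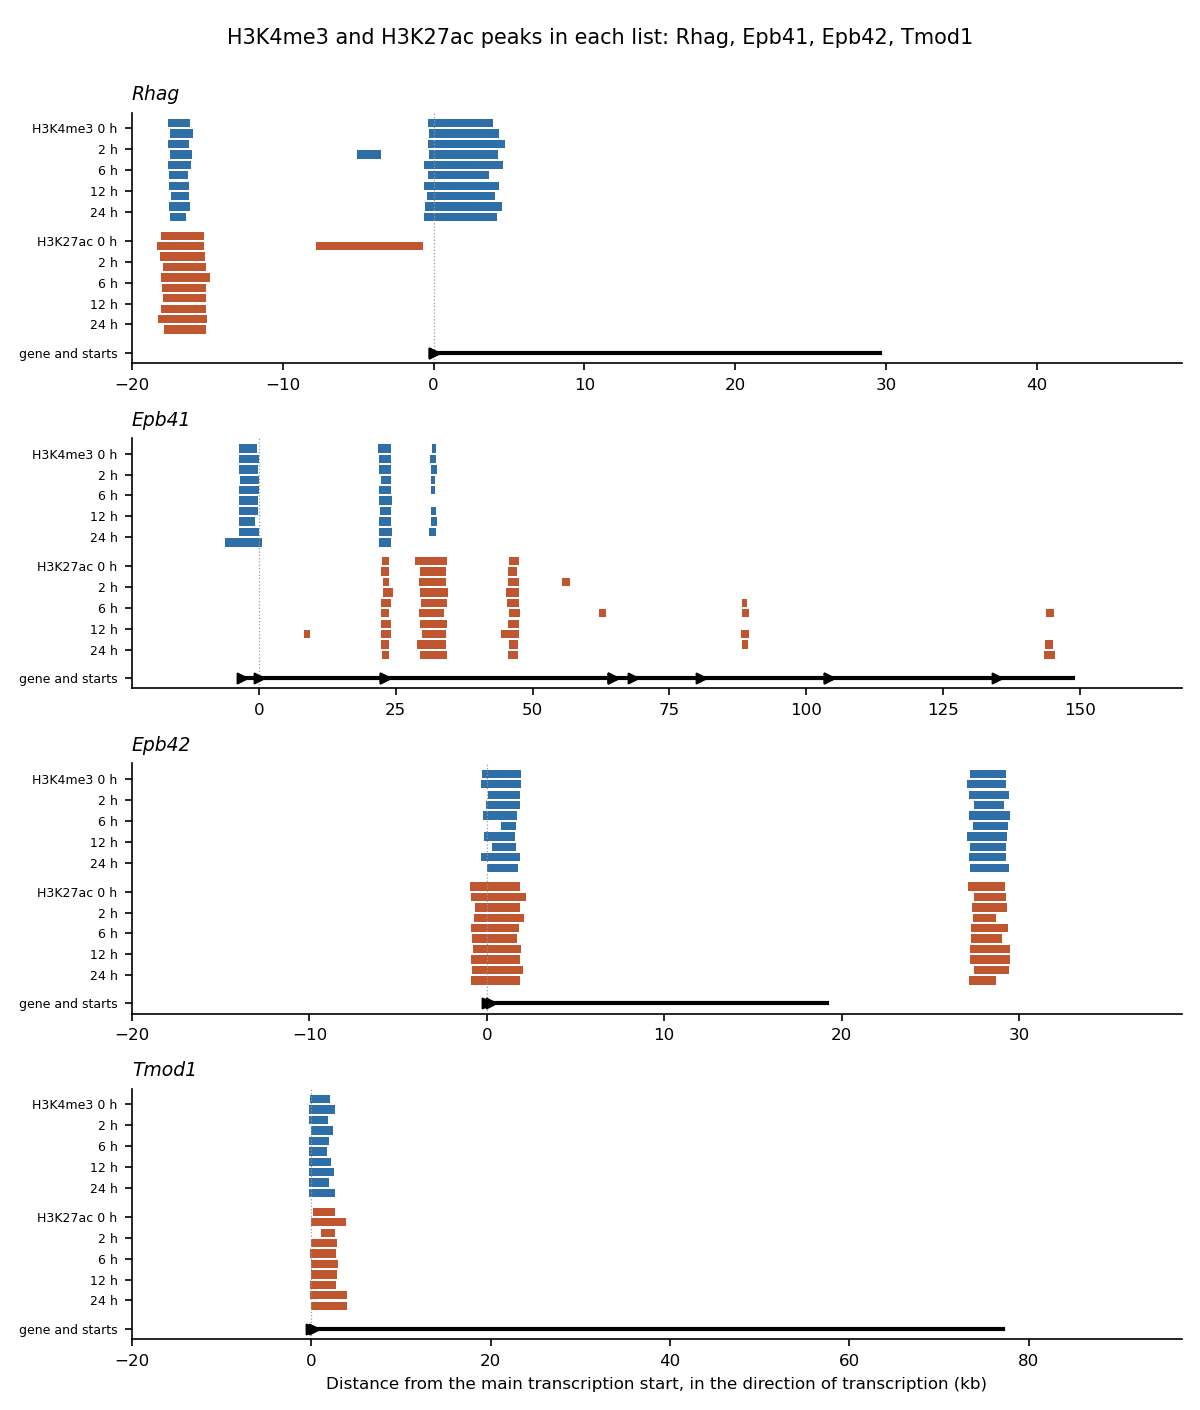
Peaks of H3K4me3 (blue) and H3K27ac (orange) in each of the 10 lists per mark, 2 rows per time point, against distance from the main TSS (kb) for Rhag, Epb41, Epb42, and Tmod1. Black lines are gene bodies and arrowheads annotated starts; the Rhag TSS has H3K4me3 in every list and H3K27ac nearby in 1 list, and the Epb41 marks coincide at the start 23 kb inside the gene.

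**Figure D4:**
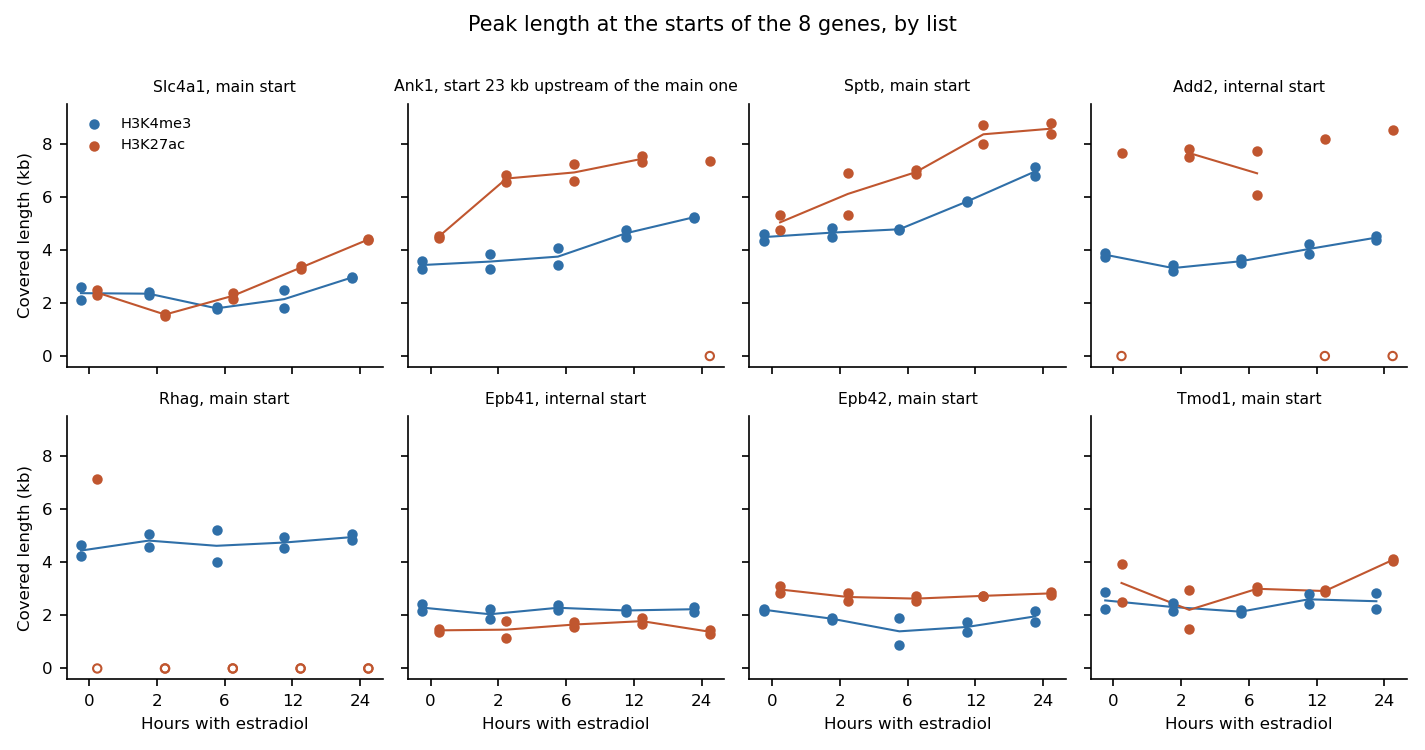
Length covered (kb) by H3K4me3 (blue) and H3K27ac (orange) at 1 start of each gene, 1 point per list, against hours with estradiol on an axis spaced by time point. Open circles are lists without a peak, and lines join means where both lists had one. Both 24 h lists lie above both 0 h lists at Slc4a1 and Sptb for either mark. They also do at Ank1, Add2, and Rhag for H3K4me3 alone and at Tmod1 for H3K27ac alone, without a call except at Ank1. The H3K4me3 difference at Slc4a1 was not called either. At Epb42, both 24 h lists of H3K4me3 lie below both 0 h lists, without a call. The share of starts separated in this way over all genes was not computed. The points of the times overlap at Epb41.

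Between 0 and 24 h, the called starts widened mainly into the gene. At the Sptb TSS, the downstream edge of H3K27ac lay 3711 and 3395 bp into the gene at 0 h and 7017 and 6764 bp after 24 h, and that of H3K4me3 went from 3255 and 3670 bp to 6041 and 5669 bp. The upstream edges moved outward by 194 bp and 79.5 bp in the mean, although that of H3K27ac stood at 2624 and 2469 bp after 12 h against 1748 and 1610 bp after 24 h. At Slc4a1, the downstream edge of H3K27ac lay between 1443 and 1617 bp in all 6 lists up to 6 h, at 2376 and 2287 bp after 12 h, and at 3350 and 3376 bp after 24 h, while the upstream edge moved by 237.5 bp in the mean. At the upstream starts of Ank1, the downstream edge of H3K4me3 went from 1919 and 2545 bp to 4073 and 3718 bp and the upstream edge moved by 134.5 bp.

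Most promoters of the genome had little movement on either side. Over the 8179 genes whose main TSS was inside an H3K27ac peak in all 4 lists at 0 and 24 h, the median outward shift was 74.5 bp downstream and 17.0 bp upstream. Downstream, 5% of genes shifted by more than 1018 bp, and upstream, 5% shifted by more than 511.6 bp. The downstream edge thus moved farther over all genes as well. Over 9194 genes for H3K4me3, the medians were 4.5 and -22.5 bp, and 5% shifted by more than 411.7 bp downstream and 179.0 bp upstream. The downstream shifts of Sptb (3338 bp for H3K27ac and 2392 bp for H3K4me3) stood at the percentiles 99.8 and 99.9 of these genes, that of Slc4a1 (1766 bp for H3K27ac) at 98.6, and that of H3K4me3 at the Ank1 upstream starts (1664 bp) at 99.6. H3K4me3 at Slc4a1 (707.5 bp) and at the internal start of Add2 (605 bp) stood at 97.8 and 97.2, and both marks of Epb42 shifted inward. The largest upstream shift was that of H3K4me3 at the main TSS of Epb41 (1244 bp), set by replicate 2 at 24 h, whose edge lay at 6148 bp against 3429 to 3725 bp in the other 9 lists. That TSS lay outside the peak in 3 of the 4 lists at 0 and 24 h, unlike the genes it is set beside. The Ank1 start at 37.8 kb lay outside its H3K4me3 peak in each of these lists. For H3K27ac, that Ank1 start and the Tmod1 TSS lay outside the peak in replicate 1 at 0 h. For H3K4me3, the Epb42 TSS did so in replicate 2 at 24 h. The upstream edge of H3K4me3 at Rhag moved by 272 bp (percentile 97.9). These positions are descriptions without a test, since the smallest p that an exact permutation test of 2 lists against 2 can give is 0.333. The starts of Sptb, Slc4a1, and Ank1 had been called longer from the same lists, so their high percentiles add no support to those calls.

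**Figure D5:**
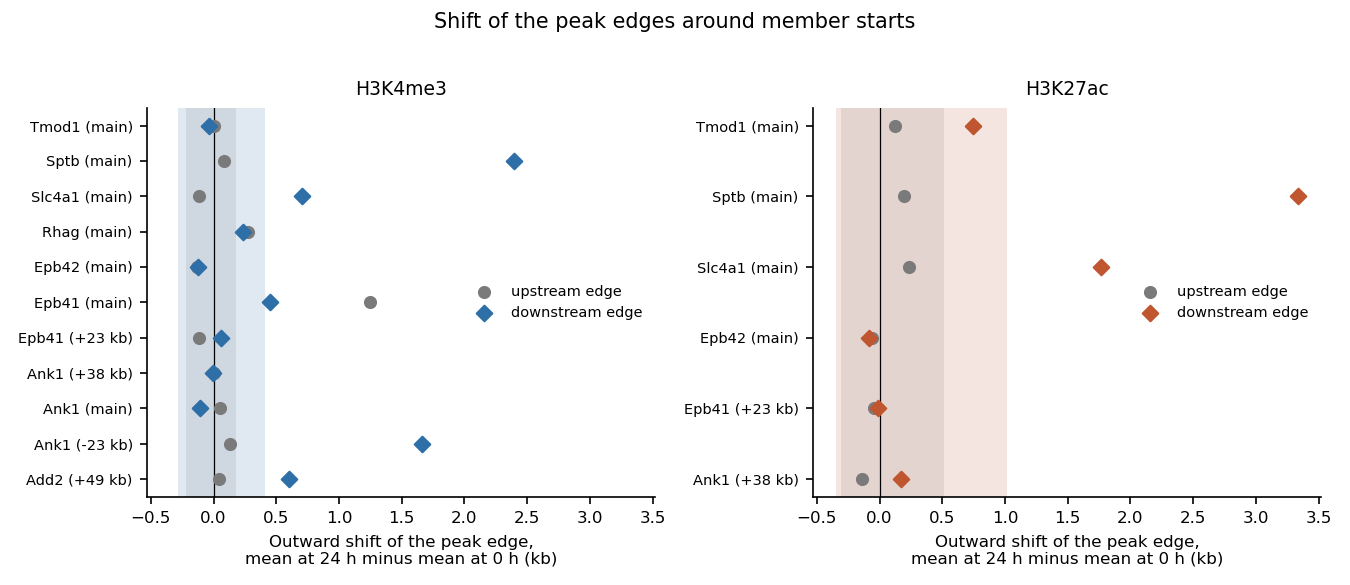
Outward shift (kb) of the upstream (gray circles) and downstream (colored diamonds) edges of the peak at each member start with a peak in all 4 lists at 0 and 24 h, mean at 24 h minus mean at 0 h (n = 2 each). Shaded bands (gray upstream, colored downstream) span the 5th to 95th percentile of genes whose main TSS lay inside a peak in all 4 lists. Some member starts lay outside their peak in some of these lists. Downstream edges of Sptb, Slc4a1, and, for H3K4me3, the Ank1 start at -23.2 kb, the Add2 internal start, and the Epb41 main TSS lie beyond the bands. So do the upstream edges of H3K4me3 at Epb41 and Rhag.

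Summed over whole loci, H3K27ac was called longer at 24 h for 2 of the 8 genes and shorter for 0, where 3.47% of all 13847 tested loci were longer and 1.91% shorter. The Slc4a1 locus went from 3963 and 3624 bp to 6637 and 6420 bp (0.75 on the log2 scale, SE 0.12, limma adjusted p = 0.018), and the Sptb locus held 10139 and 10384 bp against 16615 and 16236 bp (0.67, SE 0.14, adjusted p = 0.0471). The lists of 0 and 24 h did not overlap for either. Nor did they for Epb41, Epb42, and Tmod1, whose loci were not called, and Epb42 was lower at 24 h. The share of such loci over all genes was not computed. The call of Sptb was lost in 8 and that of Slc4a1 in 4 of 10 fits that left out 1 list, with log2 differences of 0.65 to 0.69 and 0.69 to 0.82.

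No locus of the 8 genes was called for H3K4me3 by limma, where 0.434% of all 13587 tested loci were longer and 0.677% shorter, and 1 of the 8 had an unadjusted p under 0.05 (1571 of all loci did). That locus was Ank1, with 7760 and 8488 bp before and 10478 and 10547 bp after 24 h of estradiol (0.37 on the log2 scale, SE 0.08, limma adjusted p = 0.0813). The median log2 difference of the 8 loci was 0.24 for H3K27ac and 0.14 for H3K4me3, against 0.05 and -0.03 over all loci.

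Other components of the red cell membrane, 18 genes that include dematin, the other adducins, and actin filament proteins, were called longer for H3K27ac at 3 of 16 tested loci. Of all 13847 tested loci, 3.47% were called longer and 1.91% shorter. Among the 3 were Dmtn, encoding the actin-bundling protein dematin (1.70 on the log2 scale, SE 0.16, limma adjusted p = 0.00429, from 3061 and 2139 bp to 8838 and 8743 bp) and Add1, encoding α-adducin (0.81, SE 0.13, adjusted p = 0.0181). None of the 16 was called shorter. For H3K4me3, 1 of 17 tested loci was called, again Dmtn (0.81, SE 0.10, limma adjusted p = 0.0121, from 3893 and 3993 bp to 7030 and 7142 bp), where 0.434% of all 13587 tested loci were called longer.

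Relatives of the skeleton genes that are used in other tissues mostly lacked H3K4me3. Of 14 such genes (among them Ank2, Ank3, Sptbn1, Epb41l2, Slc4a3, Rhbg, and Tmod2), 4 had H3K4me3 at an annotated TSS in all 10 lists and 10 in none, whereas 17 of the 18 other red cell membrane genes had it in all 10 lists and 1, Aqp1, in none. For H3K27ac, 3 of the 14 and 8 of the 18 had it there in all 10 lists. Of the paralogs tested, 8 for each mark, none was called by limma in either direction, with 2 at an unadjusted p under 0.05 for H3K27ac and 0 for H3K4me3. Over all loci, 2910 of 13847 and 1571 of 13587 had such a p.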

How the data were processed

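Peak lists of H3K4me3, H3K27ac, and CTCF ChIP-seq in G1ER cells were analyzed. The authors aligned reads to mm10 with Bowtie2 and called peaks per library with MACS (--nomodel); the MACS version, control, and threshold, and the methods for CTCF, are not given in the sources used here. The deposited files hold peak positions and a MACS score, and scores of separate libraries share no stated scale. Scores were therefore compared over time by their percentile within each list where a direction is drawn, and raw scores are given as listed. An alternative with 1 cutoff for all lists, the pooled median, rests on raw scores. The raw reads were not used and the peak files do not give the depth per library, so no counting interval is given.

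Peaks of the 10 lists of a mark were merged where they touched into regions. The base pairs covered in each region, and in each gene body plus 20 kb, were compared between 24 and 0 h with limma 3.58.1 (R 4.3.3) on log2(bp + 200), with a mean per time point, leaving out features covered in fewer than 2 lists. A call was a Benjamini-Hochberg adjusted p under 0.05 over all features tested. The fit was tested on simulated data. Fold changes on this scale understate those of short regions, and differences of features absent from some lists depend on the 200 bp. Regions were classed by their distance (1 kb) from starts of protein-coding transcripts in GENCODE. All 8 genes and every region at one of their starts, called, gained, or lost were to be named; other regions in the text were chosen after their values were seen. The members and gene lists were chosen with earlier results of these data known. Alternatives changed the score cutoff, flank, pseudocount, merging, samples, and model. Tables and motif searches used Python 3.11.15, pandas 2.3.3, numpy 2.4.6, and pysam 0.24.0, and plots matplotlib 3.10.9. Some genes of the lists are counted but not reported singly here.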

Additional observations from a re-analysis of the deposited data

How the results depend on the processing

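With higher-scoring peaks only (scores no less than the pooled median), the log2 difference of the H3K27ac locus was -5.05 at Sptb (adjusted p = 0.139 by limma) and -0.76 at Ank1 (0.00448), and that of the H3K4me3 locus at Sptb was -4.55. Score falls with length beyond 4 kb, and this cutoff removed the long 24 h peaks at the Sptb TSS and kept the 0 h ones, and these values do not bear on length there. Neither of the 2 H3K27ac loci called kept its call (Slc4a1 adjusted p = 0.295), and 1 other, Ank1, was called shorter. The number of H3K27ac loci called was 1 with a flank of 5 kb, 1 with the gene body only, 1 under a linear trend over time, 1 with lengths scaled by the median peak length, and 0 with the lists at 0 and 24 h only. With the replicate block, it was 1, the Sptb locus losing its call (adjusted p = 0.0662), and 1 of the 2 H3K4me3 regions stayed called, the upstream starts of Ank1 losing theirs (0.0587). Between time points, deviations of replicate 1 from the group means correlated at -0.0293 to 0.0168 over H3K27ac regions and at -0.0758 to 0.0318 over H3K4me3 regions. Over loci, the correlations ran from -0.075 to 0.051 for H3K27ac and from -0.124 to 0.132 for H3K4me3. A batch shared by same-numbered lists was not tested. With higher-scoring peaks, 1 H3K4me3 region and 1 H3K4me3 locus were called, both shorter. The lost H3K4me3 region fell outside a flank of 5 kb and the gene body, leaving 0.

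Leaving out 1 list at a time gave 1 to 4 called H3K27ac regions, 0 to 2 H3K27ac loci, 1 to 2 H3K4me3 regions, and 0 to 0 H3K4me3 loci, and 2 to 5 gained or lost H3K27ac regions and 1 to 3 H3K4me3 regions. The single H3K27ac locus called without 0 h replicate 1 was Rhag, as shorter. Of 297 locus values under alternatives, 254 kept their direction and side of the threshold, 19 lost a call, 1 gained one, 20 uncalled values changed sign, and 3 reversed. The cause of the other changes was not tested. Depth is not given by the peak lists, and its limits on presence were not computed.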

Other observations

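CTCF, a DNA-binding protein that shapes chromatin loops, had 42 peaks in the 8 loci at 0 h and 56 at 24 h, of which 41 overlapped. At 24 h, 15 peaks (26.8%) had no counterpart at 0 h, where the share over the whole lists was 26.7%. Sptb went from 7 to 12 CTCF peaks, with 6 found only at 24 h, and each of the other 7 genes had 1 or 2 found only at 24 h. There was 1 list per time point, so these counts have no replicate check, and the whole lists held 33193 and 41473 peaks.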
